A study of Mus musculus with 2 samples.

Results

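The annotated single-exon transcripts of protein-coding genes were examined in long-read RNA sequencing of the mouse adrenal gland. A transcript was taken when the deposited tables listed it as known to the annotation, with 1 exon, when its annotation tagged it as protein coding, when it lay outside the mitochondrial chromosome and was no spike-in, and when at least 1 read was assigned to it in either library. The rule gave 461 transcripts of 459 genes, out of 24228 annotated nuclear transcripts with reads and out of 2812 annotated single-exon coding transcripts, so 16.4% of those annotated were read. The other 2351 had 0 reads in both libraries. At the edge of the rule, 82 of the 461 had exactly 1 read over both libraries, and 229 had fewer than 10.

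Long-read sequencing reads each cDNA as 1 molecule, so that a read can be assigned to a whole transcript model and its exon structure. The series holds 1 group of 2 libraries, from adrenal gland tissue of female B6CASTF1/J mice, an F1 hybrid strain, at 18 to 20 months, with no treatment named in the labels, each from 1 µg of total RNA. The libraries are numbered as biological replicates and their sample descriptions number the females differently, but the donor entry is shared. Whether they come from separate animals is therefore not settled, and all p-values below compare these libraries. Apart from those of edgeR's exact test, they cover counting error only. Replicate 1 held 1478362 reads and replicate 2 held 1007541, of which 1412947 and 933963 lay on annotated genes. Levels are given as CPM, reads scaled to equal totals of reads on annotated genes, and 0 reads allow up to 3 reads, or 2.12 CPM in replicate 1 and 3.21 CPM in replicate 2. The cortex markers Cyp11a1, Cyp11b1, Star and Nr5a1 and the medulla markers Th, Chga, Chgb and Pnmt were all read. The cortex markers had 69293 and 43129 reads in replicates 1 and 2, and the medulla markers 16803 and 8723. By the exact binomial test on gene sums, Cyp11a1, Cyp11b1, Th, Chga and Chgb were higher in replicate 1. Star and Nr5a1 were higher in replicate 2, and Pnmt did not pass. Of all gene sums, 6.2% were called in each direction, a share not matched for read depth. The ratio was 1.54-fold towards replicate 1 for Cyp11b1 and 1.47-fold towards replicate 2 for Star. Throughout, a pair of values gives replicate 1 first and replicate 2 second.

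Genes without introns make mRNA that needs no splicing. Many encode proteins whose mRNA is made and destroyed quickly, such as the AP-1 and C/EBP transcription factors and the inducible heat shock protein 70, or proteins made in bursts, such as the histones of S phase, whose mRNA ends in a stem-loop in place of a poly(A) tail. Others arose when a spliced mRNA was copied back into the genome, which leaves an intronless copy that is nearly identical to the gene it came from. In long-read data the absence of a splice junction also removes the feature by which a read of mRNA is most easily told from one of genomic DNA or unspliced RNA.

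The sequences below stand for 3 kinds of single-exon gene among those described here. The first set shows the 250 bases before the annotated start of Jun and of both inducible heat shock protein 70 genes, from RefSeq on GRCm38.p6, read 5′ to 3′ on the minus strand, on which all 3 genes lie. The heat shock pair is shown because it differed most between libraries among the abundant transcripts, and Jun as an immediate early gene. Capitals mark matches to CCAAT or its reverse complement ATTGG, to GAANNTTC, a short form of the element bound by heat shock factor, and, in Jun, to TGACNTCA, an element of the AP-1 and CREB type. The regions are chr4:95052223-95052472 for Jun, chr17:34972157-34972406 for Hspa1a and chr17:34959239-34959488 for Hspa1b.
Jun: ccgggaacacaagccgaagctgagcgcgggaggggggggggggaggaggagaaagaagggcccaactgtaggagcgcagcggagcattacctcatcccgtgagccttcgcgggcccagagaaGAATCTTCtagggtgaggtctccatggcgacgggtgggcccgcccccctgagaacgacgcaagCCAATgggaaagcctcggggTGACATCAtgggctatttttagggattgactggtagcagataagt
Hspa1a: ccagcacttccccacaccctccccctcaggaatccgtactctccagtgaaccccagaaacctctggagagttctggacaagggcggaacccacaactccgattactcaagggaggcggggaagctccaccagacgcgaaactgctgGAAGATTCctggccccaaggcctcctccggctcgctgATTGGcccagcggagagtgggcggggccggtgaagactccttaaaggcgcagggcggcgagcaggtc
Hspa1b: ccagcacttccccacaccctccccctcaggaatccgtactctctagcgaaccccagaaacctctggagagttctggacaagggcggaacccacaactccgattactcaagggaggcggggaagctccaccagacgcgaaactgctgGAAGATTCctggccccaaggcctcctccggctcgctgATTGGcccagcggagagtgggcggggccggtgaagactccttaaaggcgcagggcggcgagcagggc

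The second set shows 60 coding bases of a single-exon gene beside the matching bases of its near-identical partner. How reads were assigned between such genes is not given. The bases are those of the reference annotation, and the alleles of these F1 hybrid mice were not examined. Capitals mark the bases that differ. Counted from 1 at the 5′ end of the partner's transcript, partner first, the substitutions are G721A and G757A from Ftl1 to Ftl1-ps1, A316G and G346A from Cox5b to Gm11273, and A1611G and A1647G from Hspa1a to Hspa1b.
Ftl1-ps1: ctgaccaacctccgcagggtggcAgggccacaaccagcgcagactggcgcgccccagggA
Ftl1: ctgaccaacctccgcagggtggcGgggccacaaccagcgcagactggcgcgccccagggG
Gm11273: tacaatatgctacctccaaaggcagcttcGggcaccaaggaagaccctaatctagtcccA
Cox5b: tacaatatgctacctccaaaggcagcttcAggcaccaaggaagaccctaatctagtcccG
Hspa1b: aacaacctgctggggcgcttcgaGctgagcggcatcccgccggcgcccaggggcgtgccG
Hspa1a: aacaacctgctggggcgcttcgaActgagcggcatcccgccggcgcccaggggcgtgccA

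The third set shows the stem-loop of 4 abundant replication-dependent histone transcripts, which differ in how much annotated sequence follows it. Capitals mark the match to the histone stem-loop consensus, searched on the sense strand.
Hist2h2aa2: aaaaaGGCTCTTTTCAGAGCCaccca
Hist1h1c: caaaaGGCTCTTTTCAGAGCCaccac
Hist3h2a: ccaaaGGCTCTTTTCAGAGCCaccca
Hist1h4h: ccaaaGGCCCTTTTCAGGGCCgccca

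Together the 461 transcripts took 24079 reads in replicate 1, 1.70% of reads on annotated genes (95% Clopper-Pearson interval 1.68 to 1.73%), and 16768 reads in replicate 2, 1.80% (interval 1.77 to 1.82%). The mean was 1.75 ± 0.0645% (SD, n = 2). All intervals here cover counting error only. A few transcripts held most of these reads. The most abundant alone, Cebpb, took 17.0% and 14.6% of them, the top 5 took 40.0% and 41.0%, and the top 25 took 66.9% and 67.1%. Of the 25 most abundant in replicate 1, 23 were among the 25 most abundant in replicate 2.

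**Figure D1:**
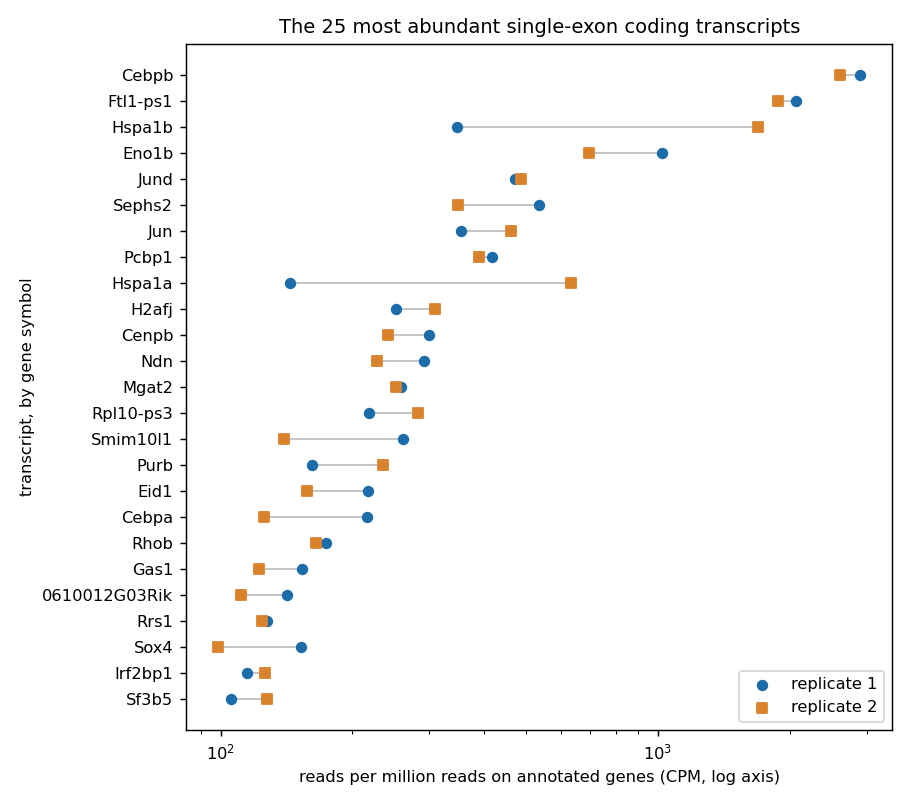
The 25 single-exon coding transcripts with the highest mean level, in CPM on a log axis, with a circle for replicate 1 and a square for replicate 2. Cebpb led in both libraries, and the widest gaps between the libraries are those of Hspa1b and Hspa1a.

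Transcription factors of the C/EBP and AP-1 families stood high on the list. Cebpb encodes a leucine zipper factor active in inflammation, fat cell differentiation and steroid-producing cells. Its single exon spans chromosome 2 from 167688915 to 167690418 on the plus strand of mm10, 1504 nt of which 891 are coding. It had 4102 reads in replicate 1 and 2442 in replicate 2, or 2903 and 2615 CPM, and ranked first of the 461 in both libraries and 17 among all annotated nuclear transcripts. The level in replicate 1 was 1.14-fold that in replicate 2 after scaling (interval 1.08 to 1.19; exact binomial test, adjusted p = 2.41e-05). Ratios are after TMM scaling throughout, and the test was run on all 10219 annotated nuclear transcripts with at least 10 reads, with Benjamini-Hochberg adjustment at 0.05.

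The 3 Jun genes encode the AP-1 subunits that pair with Fos proteins. Jund (1668 nt, chromosome 8, 70698949 to 70700616) had 665 and 454 reads in replicates 1 and 2, 478 ± 10.9 CPM, and Jun (3189 nt, chromosome 4, 95049034 to 95052222) had 501 and 431 reads, 408 ± 75.6 CPM. Junb had 111 and 76 reads, 80.0 ± 1.99 CPM. Jund and Junb lay close together in the libraries, with ratios of replicate 2 to replicate 1 of 1.01 (interval 0.894 to 1.14) and 1.01 (interval 0.746 to 1.37), whereas Jun was 1.27-fold higher in replicate 2 (interval 1.12 to 1.45, adjusted p = 0.00484). That call rested on the scaling, since with spike-in totals the log2 ratio of Jun was 0.02 (adjusted p = 0.933).

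The other C/EBP genes differed in opposite directions. Cebpa, a factor of fat and liver cells, had 305 and 117 reads, 216 and 125 CPM, and was 1.76-fold higher in replicate 1 (interval 1.42 to 2.20, adjusted p = 3.61e-06). Cebpd, an acute-phase factor, had 22 and 39 reads and was 2.62-fold higher in replicate 2 (interval 1.52 to 4.64, adjusted p = 0.00409). Among the immediate early genes Ier2 had 96 and 66 reads, Ier5 had 112 and 48, and Ier5l had 25 and 6, and none of them passed the test. All 9 annotated single-exon genes of the AP-1, C/EBP and immediate early list were read, with 5939 and 3679 reads, a median log2 ratio of 0.01, and calls of 2 towards replicate 2 and 2 towards replicate 1. Beside this, 10.8% of all 10219 transcripts tested were called, 4.36% towards replicate 2 and 6.46% towards replicate 1, and the median log2 ratio over them was -0.10.

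Of 40 other listed transcription factor genes, 33 have a single-exon coding transcript, and 19 of these were read, with 392 and 188 reads in all. Sox4, a factor of progenitor and developing tissue, held most of them, with 216 and 92 reads, and was 1.59-fold higher in replicate 1 (log2 ratio -0.66, adjusted p = 0.00304). Foxc1 had 32 and 22 reads, and Foxd2 had 18 and 10, with intervals of the ratio that included 1. Foxl2, best known as a factor of ovarian granulosa cells, had 25 reads in replicate 1 and 1 in replicate 2, a 16.9-fold difference with an interval from 2.77 to 694 (adjusted p = 0.000824). Of 8 gonadal marker genes, chosen after the data were seen, Amh, Fshr, Zp3 and Bmp15 were at 0 in both libraries, and the 8 together had 9 reads in each. Among the others Gata4 had 6 and 1 reads and Gdf9 had 2 and 7.

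The inducible heat shock protein 70 genes showed the widest difference of the 25 most abundant transcripts. Hspa1b and Hspa1a encode almost the same cytosolic chaperone, which cells make when proteins misfold, and lie side by side on chromosome 17, at 34956436 to 34959238 and 34969190 to 34972156. Hspa1b had 490 reads (347 CPM) in replicate 1 against 1583 reads (1695 CPM) in replicate 2, and ranked 8 and 3 in the libraries. Hspa1a had 203 and 592 reads, 144 and 634 CPM, and ranked 21 and 5. Hspa1b was 4.78-fold (interval 4.32 to 5.30, adjusted p = 1.63e-240) and Hspa1a 4.31-fold (interval 3.67 to 5.09, adjusted p = 7.03e-82) higher in replicate 2 by the exact binomial test. These were the only members past edgeR's exact test, whose spread is estimated from the same 2 libraries that it compares, so that it is no independent support, with adjusted p = 0.00332 for Hspa1b and 0.0123 for Hspa1a, where 0.245% of all transcripts were called, 0.108% towards replicate 2 and 0.137% towards replicate 1.

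The pair aligned over 2196 bases with 13 mismatches, 8 of them within 1926 coding bases, so single reads can be assigned to the wrong copy. Summed over both genes and all their models, the reads numbered 693 and 2180, a 4.65-fold difference (interval 4.27 to 5.08), and Hspa1a took 29.3% and 27.4% of them. Their 250 bases before the start, printed above, differed at 3 positions, and both hold GAANNTTC beginning 104 bases before the start and the ATTGG match beginning 67 bases before it. The other listed single-exon chaperone genes with reads did not pass the test. Hspa2, an HSP70 gene of the testis and other tissues, had 55 and 40 reads, and the mitochondrial J-domain gene Dnajc30 had 54 and 23.

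Several spliced genes of the heat shock response were also higher in replicate 2. Of 12 such genes, listed after the data were seen, 7 were higher in replicate 2 and 1, the mitochondrial chaperone gene Hspd1, was higher in replicate 1, with summed levels of 10752 and 11993 CPM. Bag3, a co-chaperone gene, had 114 and 171 reads and a ratio of 2.22 (interval 1.74 to 2.84), and Hsph1 had 548 and 749 reads and a ratio of 2.02 (interval 1.81 to 2.26). These ratios were the largest of the 12. Dnajb1, Dnaja1, Hspe1, Stip1 and Hspa8 were called at ratios of 1.44, 1.43, 1.40, 1.32 and 1.16. Hspb1, Hsp90aa1, Hspa4l and Chordc1 did not pass the test. For gene sums, 12.4% of 11056 genes were called, 6.2% in each direction, shares that are not matched for read depth. The part of a general heat shock response in the difference of Hspa1a and Hspa1b was not tested.

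Transcripts near-identical to a spliced gene made up a large part of the reads. Of the 461, 52 were near-identical to a spliced gene elsewhere in the genome (at least 95% identity over at least 50% of their length) and took 5590 and 3467 reads, 23.2% and 20.7% of those on the 461. Another 23, the heat shock pair and several histones among them, were near-identical to another single-exon gene and took 5.10% and 15.2%. The 386 with no such partner took 71.7% and 64.1%. The copies of spliced genes were short, with a median annotated length of 1078 nt against 2430.5 nt for the 386 without a partner.

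Ftl1-ps1, a ferritin light chain copy that is annotated as coding although its symbol marks a pseudogene, was the second most abundant in both libraries and the first per kilobase of length. It is 938 nt long on chromosome 13 (74406409 to 74407346) and had 2919 and 1754 reads, 1972 ± 133 CPM. Over 910 aligned bases it differed from Ftl1, the spliced gene of the iron storage protein, at 4 positions, 2 of them coding. Ftl1 itself had 3376 and 1946 reads, so that Ftl1-ps1 took 46.4% and 47.4% of the reads of the pair. Both genes leaned slightly to replicate 1, at 1.12-fold for Ftl1-ps1 (log2 ratio -0.17, adjusted p = 0.00205) and 1.17-fold for Ftl1 (interval 1.11 to 1.24).

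Eno1b, a 1747 nt copy of the glycolytic enolase gene Eno1, had 1446 and 648 reads, 1023 and 694 CPM. It differed from Eno1 at 9 of 1736 aligned bases and took 40.2% and 40.8% of the reads of the pair. Its level was 1.51-fold higher in replicate 1 (log2 ratio -0.59, adjusted p = 9.07e-17), and that of Eno1, with 2160 and 941 reads, was 1.55-fold higher (interval 1.44 to 1.68). The copy and its partner thus had nearly the same ratio between libraries. How reads were divided between a copy and its partner was not tested, and the shares are given as deposited.

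Copies of ribosomal protein and mitochondrial genes followed. Rpl10-ps3, a 768 nt copy of the gene for a 60S ribosomal protein, matched Rpl10 over 740 aligned bases without a mismatch and had 308 and 264 reads, against 24 and 18 on Rpl10, or 92.8% and 93.6% of the pair. Gm11273, a 390 nt copy of Cox5b, a subunit gene of cytochrome c oxidase, had 135 and 115 reads, against 569 and 382 on Cox5b, with 3 mismatches in 390 bases. Rps27rt, the shortest transcript with at least 50 reads at 374 nt, had 90 and 98 reads, against 315 and 286 on Rps27. Rps27rt was 1.61-fold (interval 1.20 to 2.17, adjusted p = 0.0172) and Rps27 1.34-fold (interval 1.14 to 1.58) higher in replicate 2. The call for Rps27rt was lost with spike-in totals (adjusted p = 0.233). That for Rpl10-ps3, at 1.27-fold (adjusted p = 0.0467), was lost with spike-in totals (adjusted p = 0.975) and with DESeq2 size factors (adjusted p = 0.0729).

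**Figure D2:**
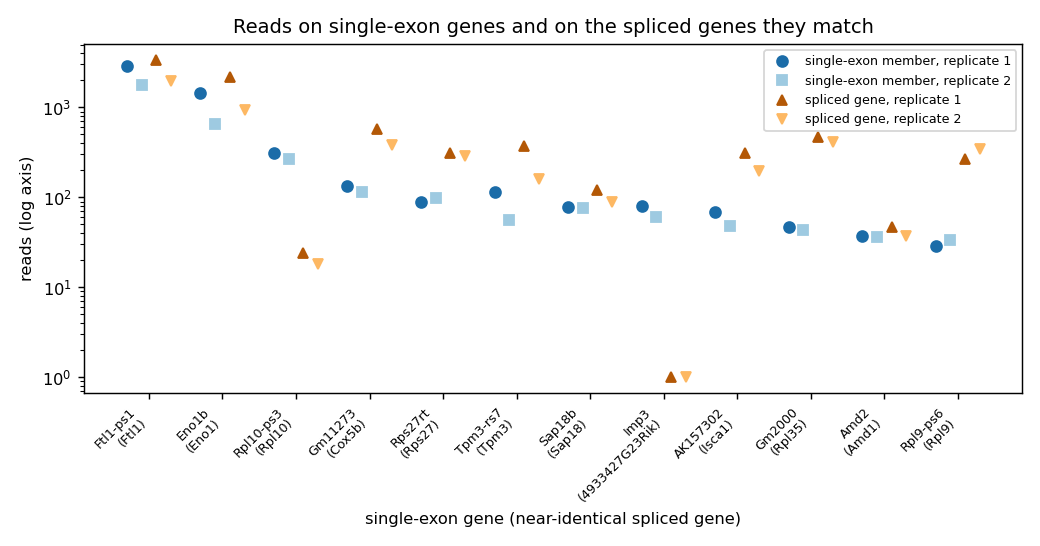
Reads, on a log axis, of the 12 most abundant single-exon genes that are near-identical to a spliced gene (blue, circle for replicate 1 and square for replicate 2) and of that spliced gene (brown, upward triangle for replicate 1 and downward for replicate 2). Most single-exon genes had fewer reads than the spliced gene, but Rpl10-ps3 and Imp3 had more. The partner of Imp3 is a noncoding transcript of 4933427G23Rik, with 1 and 1 reads, that matches 60.8% of Imp3 at 95.9% identity.

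The remaining leading genes covered general cell functions. Sephs2 makes the selenium donor for selenoproteins and is a selenoprotein itself. It is 2177 nt long on chromosome 7 (127271879 to 127274055) and had 756 and 325 reads, 535 and 348 CPM, 1.57-fold higher in replicate 1 (log2 ratio -0.65, adjusted p = 2.71e-10). Pcbp1, which encodes a poly(C)-binding protein of RNA processing and iron delivery, had 589 and 364 reads, 403 ± 19.2 CPM, with a ratio of 0.914 that did not pass the test (adjusted p = 0.490).

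Among genes of chromatin and RNA, Cenpb, whose protein binds centromere repeats, had 423 and 225 reads (adjusted p = 0.0361, higher in replicate 1). Purb, which encodes a single-strand DNA and RNA binding protein and is 8319 nt long, had 228 and 219 reads and was 1.42-fold higher in replicate 2 (interval 1.18 to 1.72), a call lost with spike-in totals (adjusted p = 0.397). Eid1, an inhibitor of the p300 acetyltransferase, had 307 and 147 reads and was higher in replicate 1 (log2 ratio -0.50, adjusted p = 0.00860). Rrs1, of ribosome assembly, had 180 and 116 reads, Irf2bp1, a corepressor gene, had 162 and 118, and Sf3b5, which encodes a subunit of the spliceosome and needs no splicing itself, had 149 and 119. None of these last 3 differed by the test.

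Mgat2, an enzyme gene of N-glycan processing in the Golgi, had 364 and 235 reads and nearly the same CPM in both libraries, 258 and 252. Rhob, a small GTPase gene of endosome traffic, had 246 and 154 reads, 169 ± 6.52 CPM. Gas1, which encodes a membrane-anchored co-receptor for Hedgehog ligands, had 217 and 114 reads on a 1155 nt transcript annotated as coding throughout, and 4 and 6 on a longer one. The gene 0610012G03Rik had 200 and 104 reads. Smim10l1, a small membrane protein gene, stood further apart, with 369 and 130 reads, 1.92-fold higher in replicate 1 (interval 1.57 to 2.36, adjusted p = 2.11e-09). Among the 25 most abundant, 5 were called towards replicate 2, 10 towards replicate 1 and 10 in neither direction, beside 4.36% and 6.46% of all transcripts tested. These 25 were taken for their abundance, and each had at least 268 reads. Of the 10219 transcripts tested, only 3260 had at least 100 reads. The test covers counting error only and calls smaller ratios at higher counts, so these shares are not matched for depth.

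The order changes when counts are divided by length. Per kilobase of annotated transcript the first 10 were Ftl1-ps1, Cebpb, Eno1b, Hspa1b, Rpl10-ps3, Jund, Gm11273, Rps27rt, Pcbp1 and Sephs2. Jun moved from 7 by CPM to 15, Cenpb from 11 to 35 and Purb from 16 to 72. The listed length equalled that of the annotated transcript for all 461, so it describes the annotation and not the reads.

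The median length of the 461 was 2177 nt (quartiles 1273 and 3142), against 2492 nt for 17113 spliced coding transcripts with reads. The median 5′ UTR had 156 nt, the median coding part 861 nt and the median 3′ UTR 799 nt, and 304 of the 461 (65.9%) held AATAAA or ATTAAA in their last 50 bases. The longest with at least 50 reads were Paqr9 (8367 nt), Purb, Fem1a (6801 nt, 50 and 31 reads), Rbm15b (6511 nt, 33 and 42 reads) and Fzd8 (5974 nt, 28 and 27 reads). The shortest were Rps27rt, Gm11273, Gm7075 (425 nt, 28 and 31 reads), Gm2000 (445 nt, 47 and 43 reads) and the histone gene Hist1h4h (470 nt, 37 and 30 reads).

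By length, the median log2 ratio of tested single-exon transcripts was 0.39 up to 1000 nt, -0.20 from there to 2000 nt, -0.07 to 3000 nt, -0.03 to 4000 nt and 0.11 beyond. Spliced coding transcripts gave 0.06, -0.22, -0.29, -0.08 and 0.18 in the same bins. In both sets the shortest and the longest transcripts leaned towards replicate 2, although with spike-in totals this held only for the shortest single-exon ones, at 0.07. In the shortest bin 31 single-exon and 842 spliced transcripts were tested.

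**Figure D3:**
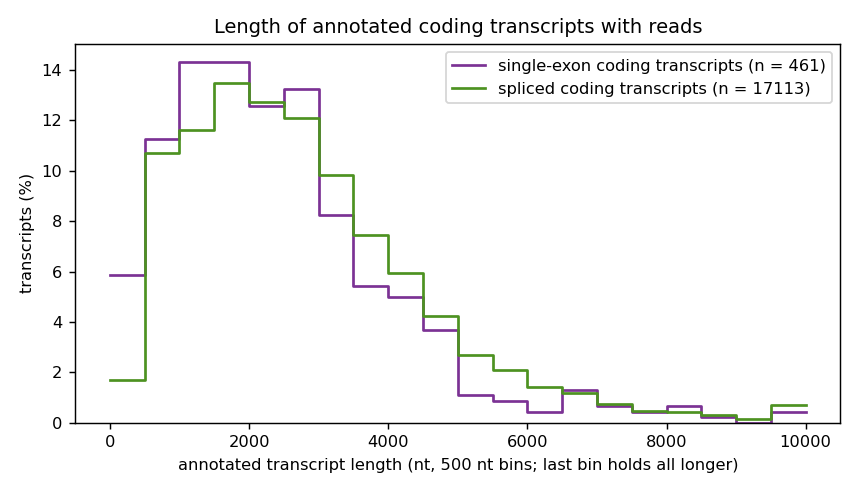
Share of transcripts (%) by annotated length in 500 nt bins, for the 461 single-exon coding transcripts and 17113 spliced coding transcripts with reads; the last bin holds all that are longer. The single-exon curve is higher below 2000 nt and lower between 3000 and 6500 nt.

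Histone genes were read unevenly. Of 66 annotated single-exon transcripts of replication-dependent histone genes, 28 were read, with 438 and 309 reads. None of the 8 that could be tested passed the test, beside 10.8% of all transcripts tested. Hist2h2aa2 had 115 and 91 reads and Hist2h2aa1, identical to it over the aligned part, had 89 and 82. The linker histone gene Hist1h1c had 102 and 43 reads and Hist3h2a had 42 and 26. For Hist1h1c the ratio of replicate 2 to replicate 1 was 0.624 (interval 0.426 to 0.899; exact binomial test, adjusted p = 0.0708). The core histone genes Hist2h2aa2 and Hist2h2aa1 end 35 annotated bases after the stem-loop and hold no AATAAA or ATTAAA in their last 50 bases. In Hist1h1c 840 bases follow the stem-loop and in Hist3h2a 1643, and both hold such a signal at the end. Other transcripts broke this contrast. Hist1h4h ends 46 bases after the stem-loop and holds the signal, whereas Hist2h3c2, with 377 bases after it, holds none.

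Among the 28 transcripts read, 25 had a stem-loop match, with a median of 369 annotated bases after it, and 9 had a polyadenylation signal in the last 50 bases. Among the 38 not read, 21 had a match, with a median of 42 bases after it, and 5 had the signal. The stem-loop lay within 60 bases of the end in 8 transcripts read, which held 465 reads, and further away in 17, which held 265 reads. Several of these genes are near-identical to each other, so the split of reads among them is uncertain. Replacement histones, made outside S phase, were led by H2afj, with 356 and 289 reads and 281 ± 40.6 CPM, followed by H1f0 with 89 and 43 reads and H2afx with 59 and 33. H2afj had more reads in each library than any replication-dependent histone transcript. None of the 3 tested replacement histones passed the test, although the interval for H2afj, 1.02 to 1.41, did not include 1 (adjusted p = 0.132).

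**Figure D4:**
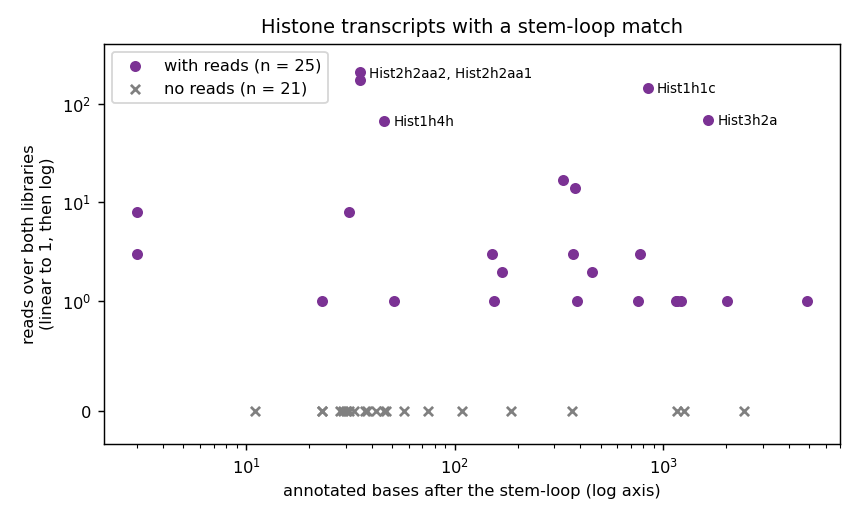
Reads over both libraries (linear to 1, then log) against the annotated bases after the stem-loop (log axis), for 25 histone transcripts with reads and 21 without. The most abundant pair ends 35 bases after the stem-loop, whereas transcripts without reads lie at both short and long distances.

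Of 17 listed imprinted and retrotransposon-derived genes, 13 have a single-exon coding transcript, and 12 of these were read, with 715 and 412 reads. Ndn, the paternally expressed necdin gene (3694 nt, chromosome 7), had 411 and 213 reads, 259 ± 44.4 CPM, and was the 1 gene of the list past the test, with the higher level in replicate 1 (log2 ratio -0.38, adjusted p = 0.0202). Rtl8a, Rtl8b and Rtl8c derive from a retrotransposon Gag gene and lie on the X chromosome. Rtl8a had 83 and 75 reads and Rtl8b 48 and 33 on the single-exon transcript, but Rtl8c had 0 and 2. Rtl8a and Rtl8b are near-identical. Over all models the 3 genes together had 138 and 166 reads, 1.78-fold higher in replicate 2 (interval 1.41 to 2.25). Of these Rtl8a had 85 and 76 reads and Rtl8b 53 and 40. Rtl8c had 50 over both libraries, of which 32 were spliced, all of these from replicate 2. The summed ratio therefore rests largely on Rtl8c models other than its single-exon transcript. Nsmce3, of the SMC5/6 complex, had 81 and 48 reads.

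Of 46 listed genes for G protein-coupled receptors, 27 have a single-exon coding transcript, and 15 of these were read, with 183 and 122 reads. The list does not hold every such gene. The orphan receptor gene Gpr27 had 47 and 21 reads, the Wnt receptor gene Fzd1 had 32 and 22, and Fzd8 is given above. Adrb1, which encodes a receptor for catecholamines, had 13 and 3 reads with an interval of the ratio from 0.0624 to 1.24. Fzd7, another Wnt receptor gene, had 4 and 13 reads and was higher in replicate 2 (adjusted p = 0.0453), a call that was lost with spike-in totals (adjusted p = 0.0596).

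Other single-exon families had few or no reads at this depth. Of 1250 olfactory, vomeronasal and trace amine receptor genes, 1 was read, with 1 read, and 0 of 57 keratin-associated protein genes were. Clustered protocadherins of the beta cluster were read for 11 of 22 genes, with 37 and 11 reads in all, led by Pcdhb22 with 9 and 3. Of 15 listed potassium channel genes, 6 have a single-exon coding transcript, and 4 of these were read, led by Kcna5 with 9 and 2 reads. A count of 0 does not show absence below the limits given above.

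The libraries differed for 30 of the 232 transcripts with at least 10 reads (12.9%), of which 13 were higher in replicate 2 and 17 in replicate 1. This share stands beside 10.8% of all annotated nuclear transcripts and 10.9% of spliced coding ones. With spike-in totals in place of TMM, which moves the log2 ratios by -0.33, 6 were higher in replicate 2 and 37 in replicate 1. With edgeR's exact test, which uses a coefficient of variation of 22.8% between libraries, 2 were higher in replicate 2 and 0 in replicate 1, where 9 and 6 had an unadjusted p under 0.05. The calls for Jun, Purb, Rpl10-ps3, Rps27rt, Fzd7 and Pcf11 were among those lost with spike-in totals, and those for Cenpb, Dolk and Mageh1 with total reads. Among transcripts with at least 100 reads, 63 of 66 single-exon ones (95.5%) lay within 2-fold, against 96.2% of all annotated nuclear transcripts.

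Of the 461, 349 (75.7%) were read in both libraries, 67 only in replicate 1 and 45 only in replicate 2. For spliced coding transcripts the share in both was 75.6%. Over the 349 the CPM values had a Pearson correlation of 0.923 on the log2 scale and a Spearman correlation of 0.913, where all annotated nuclear transcripts gave 0.929 and 0.911. Transcripts are not independent replicates, and each library's values share its depth.

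**Figure D5:**
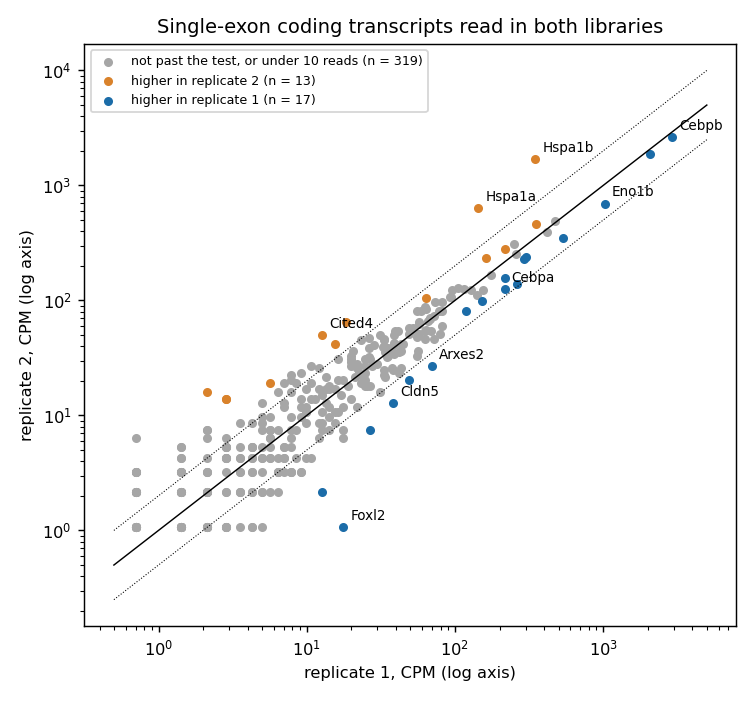
Level in replicate 2 against replicate 1, in CPM on log axes, for the 349 single-exon coding transcripts read in both libraries; the solid line marks equal CPM and the dotted lines 2-fold. Orange points were higher in replicate 2 (13) and blue points higher in replicate 1 (17), with Hspa1b and Hspa1a furthest above the line among abundant transcripts.

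Among the transcripts with at least 50 reads, Cldn5, Arxes2 and Paqr9 lay furthest towards replicate 1. Cldn5, a tight junction gene of endothelium, had 54 and 12 reads, 3.04-fold higher in replicate 1 (interval 1.61 to 6.25, adjusted p = 0.00287). Arxes2, an adipocyte-related gene on the X chromosome, had 99 and 25 reads, 2.68-fold higher (interval 1.71 to 4.33, adjusted p = 7.85e-05). Paqr9, of the progestin and adiponectin receptor family, had 69 and 19 reads, 2.45-fold higher (interval 1.46 to 4.32, adjusted p = 0.00510).

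Of 12 adipocyte markers, chosen after the data were seen, 8 were higher in replicate 1 and 0 in replicate 2, beside 6.2% of all gene sums in each direction, and all 12 were read. Their summed level was 10288 CPM in replicate 1 and 7036 CPM in replicate 2. The brown fat gene Ucp1 was at 1687 and 602 CPM and Plin1 at 452 and 245 CPM. Cfd was called at 1.08-fold on 3147 and 1964 reads. Fabp4, Cidea and Lipe had ratios of replicate 2 to replicate 1 of 0.967, 0.978 and 1.00. Neither they nor Lep passed the test. The 6.2% is not matched for read depth, and the test calls smaller ratios at higher counts. Of 10 endothelial markers, 1, Tek, was higher in replicate 2 and 0 in replicate 1, beside the same 6.2%, at 563 and 656 CPM in all. The part of fat or vessel cells in the differences of Cebpa, Arxes2, Paqr9 and Cldn5 was not tested. In whole tissue, fewer cells of a type and less RNA per cell cannot be told apart.

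Further towards replicate 1, Smim10l1 and Cebpa are given above, and Clec14a, an endothelial lectin gene, with 44 and 15 reads, the imprinted gene Nap1l5 with 59 and 22, Ccdc85b with 61 and 24, Rnf26 with 78 and 31, and Fahd1 with 48 and 20 did not pass the test. Towards replicate 2, after the heat shock pair, came Cited4, a coactivator gene that binds CBP and p300, with 18 and 47 reads, 3.86-fold higher (interval 2.20 to 7.07, adjusted p = 1.41e-05), and Gm13889 with 26 and 61 reads, 3.47-fold higher (interval 2.16 to 5.72, adjusted p = 1.76e-06). Cited2, a relative of Cited4, had 15 and 25 reads and a ratio of 2.47 that did not pass (adjusted p = 0.0514). Dolk, the dolichol kinase gene of glycosylation (168 and 76 reads), Ttc30b of cilium transport (38 and 7) and Mageh1 (18 and 2) were also called towards replicate 1, and Pcf11, of mRNA 3′ end formation (4 and 13), towards replicate 2. The ratios of Rbm15b, Usp27x (23 and 29 reads), Gm5617 (37 and 44), Rpl9-ps6 (29 and 34) and Gm7075 lay between 1.64 and 1.88 without passing the test.

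A single-exon transcript is not always the product of an intronless gene. Of the 461, 335 came from genes annotated with single-exon transcripts only, and these took 17497 and 12942 reads, 72.7% and 77.2% of the total. Another 111 came from genes that also have spliced coding transcripts and 15 from genes with spliced noncoding ones. In the 335, 99.2% of the reads of their genes lay on the single-exon transcript, and in 288 of them all did. How unspliced reads of such genes were classed bears on this share, as given below.

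In the 111, the single-exon transcript took 53.5% of the reads of its gene in all, with a wide spread. In 39 of them it took at least 90% and in 25 under 10%. The 39 held 9034 reads and included Ftl1-ps1, Eno1b, H2afj, Smim10l1, Cebpa, Rnf26, Hspa2, Ccdc85b and Rbm15b, whereas Nap1l5 took 89.0%. For Cebpa and Hspa2 all reads of the gene lay on the single-exon model. Over all 461 and every gene structure, 58 transcripts could be tested for a difference between libraries in their share of the gene's reads. By Fisher's exact test 1 differed, Iqck, with 3 of 44 and 15 of 33 reads (adjusted p = 0.0196), where 0.811% of all 13681 transcripts were called. Iqck was named after its values were seen.

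Few reads of the genes with single-exon transcripts only were spliced. Known single-exon models took 99.3% and 99.1% of their reads, and spliced models classed as genomic took 0.624% and 0.681%. The share was uneven between genes, and the genes with the most spliced reads are named after their values were seen. Spliced models held 51 of 144 reads of Fndc10, 34 of 39 of Tmem200b, 32 of 50 of Rtl8c, all 32 from replicate 2, and 12 of 93 of Rtl8b. In coding genes annotated with spliced coding transcripts only, known spliced models took 76.6% and 72.5%. Single-exon models classed as genomic took 3.42% and 5.75% there, but the genes with single-exon transcripts only had no such models. The share on their known models therefore depends on how unspliced reads were classed, and does not tell mRNA from genomic DNA or unspliced RNA.

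RefSeq promoters, 250 bases before to 50 after the start, were matched for 277 transcripts, of which 244 had a start within 500 bases of the annotated one. The cAMP response element TGACGTCA was present on either strand in 12 of the 244 (4.92%), against 1.79% of all 32851 promoters, and TATAAA in 7.79% against 13.6%. CCAAT was present in 39.3% against 37.4%, the AP-1 element TGANTCA in 4.51% against 7.81%, and the full heat shock element of 3 units in 0 against 0.603%. Shorter forms, added after the sequences were seen, GAANNTTC and TGACNTCA, were present in 6.56% and 10.2%, against 7.86% and 8.83%; the form TGACGTCA is contained in TGACNTCA. In Jun TGACNTCA began 45 bases, CCAAT 65 bases and GAANNTTC 128 bases before the start. A match describes the letters only. The full heat shock element was searched as an exact string, so elements with a mismatched base in any unit were not counted. Its 0 therefore does not show that the promoters of Hspa1a and Hspa1b hold the short form alone. Longer elements with mismatches were not tested.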

How the data were processed

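The deposited values are, per the file headers, the count of long reads that each transcript model received, with no normalization; the accompanying text names mm10 and GENCODE M21. The aligner, the rule for single-exon reads, read filters and the use of strand are not given in the sources used here. Reads were used as deposited.

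CPM values use reads on annotated genes. Ratios were scaled by TMM (edgeR 4.0.16, R 4.3.3, genes with at least 10 reads), and log2 ratios took a prior of 0.5 counts. Libraries were compared by an exact two-sided binomial test conditional on each total (scipy 1.17.1). The test was tried on simulated data, in which 70 of 99 transcripts changed 4-fold, 36 of 96 changed 2-fold and 7 of 9588 unchanged were called. These counts do not give the rate of calls that variation between real libraries brings. For edgeR's exact test the coefficient of variation between these libraries was 22.8%. The share of a gene's reads was tested where the gene had at least 20 reads in each library. Near-identical transcripts were found with minimap2 2.31. Transcript sequences and coding regions came from GENCODE M21.

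The members, gene lists and marker lists were chosen with earlier results of these data known. The transcripts named are the 25 with the highest mean CPM, up to 4 of each list, the 10 highest and 10 lowest ratios and the 5 longest and 5 shortest among those with at least 50 reads, and the 10 most abundant of genes with spliced coding transcripts; others, such as Junb, Ier2, Ier5, Ier5l, Hist3h2a, Fzd7, Dolk, Ttc30b, Mageh1, Pcf11, Iqck, Imp3 and the spliced partners, were added after their values were seen. Alternatives covered scaling, read minimums, edgeR's exact test, DESeq2 1.42.0 size factors, gene sums and thinning. Results for some of the genes that the rule takes are not reported here.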

Additional observations from a re-analysis of the deposited data

How the results depend on the processing

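Of the 30 transcripts that differed between libraries, 29 kept their call with DESeq2 size factors, 27 with total reads, 23 with spike-in totals, 23 with no read minimum, 29 with gene sums, 22 with replicate 1 thinned to the depth of replicate 2 and 2 with edgeR's exact test; the 23 that could be tested at a minimum of 50 reads all kept it, and none changed direction under these settings. With spike-in totals 6 were higher in replicate 2 and 37 in replicate 1. With edgeR's exact test 2 differed, with 2 higher in replicate 2 and 0 in replicate 1. The mean share of reads on these transcripts, 1.75%, was 2.33% of reads on annotated nuclear transcripts, 1.31% for genes with single-exon transcripts only, 2.13% with gene sums and 1.19% without near-identical transcripts, an alternative added after seeing the data. Without replicate 1 or replicate 2 the share ranged from 1.70% to 1.80%. At a minimum of 50 reads per gene 0 transcripts of 34 tested differed in the share of their gene's reads by Fisher's exact test, with 1 at an unadjusted p under 0.05; the gene of Iqck, with 44 and 33 reads, is not tested at that minimum. The calls of Fzd7, Pcf11 and Mageh1, each on 20 reads or fewer, were lost under several settings, whereas that of Foxl2, on 26 reads, was lost only with edgeR's exact test; the cause was not tested. No paired analysis was possible because the series has 1 group.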
